A study of Mus musculus with 30 samples.

Results

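The genes described here are 32 genes that mark astrocytes or carry out work typical of them, chosen by name as the probe sets whose platform gene symbol is one of the 32. They were read on all 30 arrays and stand among 18193 genes with a probe set of 1 symbol. The members had 75 of the array's 45101 probe sets. Of the 32 genes, 12 had a single probe set and 20 had several.

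Olig1 and Olig2 encode basic helix-loop-helix transcription factors of neural progenitors and the oligodendrocyte lineage, and the arrays ask which transcripts depend on them. Of the 30 arrays, 22 came from neurospheres, free-floating progenitor cultures begun from E14.5 ganglionic eminence, and 8 came from E18.5 tissue, forebrain or spinal cord of 4 embryos. Untransduced neurospheres were null for Olig1/2 (6 lines), heterozygous (3 lines) or wild type (3 lines). Null lines 12, 13 and 14 and heterozygous lines 11 and 15 were also measured after a retrovirus carrying Olig2 and, in separate arrays, after one carrying GFP. Both kinds of virus culture were selected with blasticidin at 2 µg per mL, which the untransduced cultures did not receive, so comparisons with untransduced arrays also differ in that drug. Tissue came from 2 null embryos (1 and 2) and 2 heterozygous embryos (3 and 4), each giving a forebrain and a spinal cord array. The tissue labels name Olig2 alone, while the series design names Olig1/2 for the tissue as well.

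Every neurosphere array, controls included, came from Ink4a/Arf-/- cells on a mixed Swiss and C57BL/6J background. All of these cells had also received EGFRvIII, a constitutively active mutant of the epidermal growth factor receptor found in gliomas, by retrovirus and drug selection, and they grew in EGF and basic FGF. "Untransduced" here means without Olig2 or GFP virus. The passage at harvest of each culture was not given, nor whether each line came from its own embryo, so p-values measure the spread between these cultures. The wild type and heterozygous cultures together are called Olig-expressing.

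Astrocytes clear glutamate and potassium from around neurons, couple to each other through gap junctions, supply metabolites and secrete proteins that shape synapses and matrix. Many of their genes, such as Slc1a3, Fabp7, Vim and Tnc, are already active in the radial glia and progenitors from which astrocytes arise. Others, such as Aqp4, S100b, Gjb6 and Aldh1l1, are used as signs of maturing astrocytes. In mouse spinal cord, loss of Olig genes is known to remove oligodendrocyte progenitors and motor neurons.

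RefSeq's table (GRCm38.p6) held a window before the transcription start for 27 of the 32 genes, 35 windows in all. There was none for Aqp4, Atp1b2, Clu, Cpe or Sparcl1. Glul and Aldh1l1 rose in the null cultures and had a lower mean, without a call, with Olig2. Fgfr3 and Mt2 rose with Olig2. Stretches of 250 bases upstream of a listed start are shown for Glul, Aldh1l1, Fgfr3 and Mt2, in that order. In the first 3, capitals mark the E-box CANNTG, the core that basic helix-loop-helix factors such as Olig2 bind. In Mt2, capitals mark TGCACNC or TGCGCNC, the core of the metal response element, on either strand. All 4 lie on the plus strand.
Glul chr1:153899679-153899928: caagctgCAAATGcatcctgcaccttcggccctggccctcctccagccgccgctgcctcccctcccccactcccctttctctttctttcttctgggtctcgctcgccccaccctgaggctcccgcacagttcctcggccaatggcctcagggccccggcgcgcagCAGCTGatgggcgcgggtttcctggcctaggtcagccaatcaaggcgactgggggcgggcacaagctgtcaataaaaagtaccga
Aldh1l1 chr6:90550543-90550792: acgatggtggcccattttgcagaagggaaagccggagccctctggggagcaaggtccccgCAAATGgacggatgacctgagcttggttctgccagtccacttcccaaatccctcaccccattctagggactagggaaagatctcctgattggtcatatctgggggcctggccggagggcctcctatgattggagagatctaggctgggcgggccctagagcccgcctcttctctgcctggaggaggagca
Fgfr3 chr5:33721474-33721723: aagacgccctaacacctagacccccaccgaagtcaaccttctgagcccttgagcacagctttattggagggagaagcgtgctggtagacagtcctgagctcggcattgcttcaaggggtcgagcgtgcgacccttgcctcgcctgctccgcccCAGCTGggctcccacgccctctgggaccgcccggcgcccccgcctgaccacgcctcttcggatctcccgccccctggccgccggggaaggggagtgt
Mt2 chr8:94172368-94172617: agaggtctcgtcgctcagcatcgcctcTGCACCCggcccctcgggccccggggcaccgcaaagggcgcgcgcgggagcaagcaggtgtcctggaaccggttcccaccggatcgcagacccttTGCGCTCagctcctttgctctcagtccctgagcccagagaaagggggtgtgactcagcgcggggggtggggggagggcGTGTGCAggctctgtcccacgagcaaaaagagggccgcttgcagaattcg

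The E-box stood 2 times in the Glul stretch, 1 time in that of Aldh1l1 and 1 time in that of Fgfr3. Fgfr3 has another listed window, not shown, which held no E-box. The motif is common: CANNTG was found on 26 of the 35 windows of these genes and on 66.2% of all 32851 windows, and 31.8% of all windows held it at least 2 times. The form CAGCTG, which the Glul and Fgfr3 stretches hold, was on 3 of the 35 windows and on 13% of all. The metal response core stood 3 times upstream of Mt2. At least 1 match was present on 7 of the 35 windows and on 21.4% of all windows, and at least 3 on 1.26%. Both strands were searched, E-box forms overlap the general CANNTG, and a match describes the letters alone.

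The genotype check came from Olig1, Olig2 and Id4, the last an inhibitor of such factors. Olig1 was lower in null than in Olig-expressing cultures by a log2 difference of -1.61 (adjusted p 2.1e-07) and Olig2 by -0.80 (adjusted p 0.0028), while Id4 rose by 4.33 (adjusted p 2.8e-08). Olig1 and Olig2 were still read at 7064 to 9509 and 6177 to 11577 in null cultures, and the sources used here do not say whether their probe sets lie in the deleted part. In null lines given Olig2 virus the Olig2 probe set read 4450.3, 5696.8 and 10011.4, against 10274.8, 8279.4 and 8949.6 with GFP, so it did not show the added gene, while Id4 fell by 2.52 (adjusted p 0.0020). In null spinal cord Olig2 fell by 3.24 (adjusted p 0.043) and Olig1 by 1.03 (adjusted p 0.0054). Forebrain Olig2 was 178.7 and 108.9 in null, against 269.2 and 519.3 in heterozygous embryos, without a call. Signals are the deposited MAS5 values, scaled by the authors so that the trimmed mean is 500 on each array, and array medians ran from 128.9 to 217.4. Differences are on the log2(signal + 16) scale, which understates changes of dim genes. A gene was called at a Benjamini-Hochberg adjusted p under 0.05 in limma's test over all genes. In the neurosphere comparisons 31 of the 32 genes passed the filter on low signals, and Gjb6, a connexin of mature astrocytes, did not (6.6 to 110 on all 22 neurosphere arrays). In tissue 31 passed, and F3, the tissue factor gene, did not (26.4 to 180 on 8 arrays). As to other cell types, 6 of 10 microglial markers were under the array median on every null culture array. The same held for 9 of 10 in both other untransduced groups, which have fewer arrays and so meet that rule more easily. The summed signal of those 10 ran from 939.4 to 1278 in null, from 857 to 1031 in heterozygous and from 963 to 1176 in wild type cultures.

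**Figure D1:**
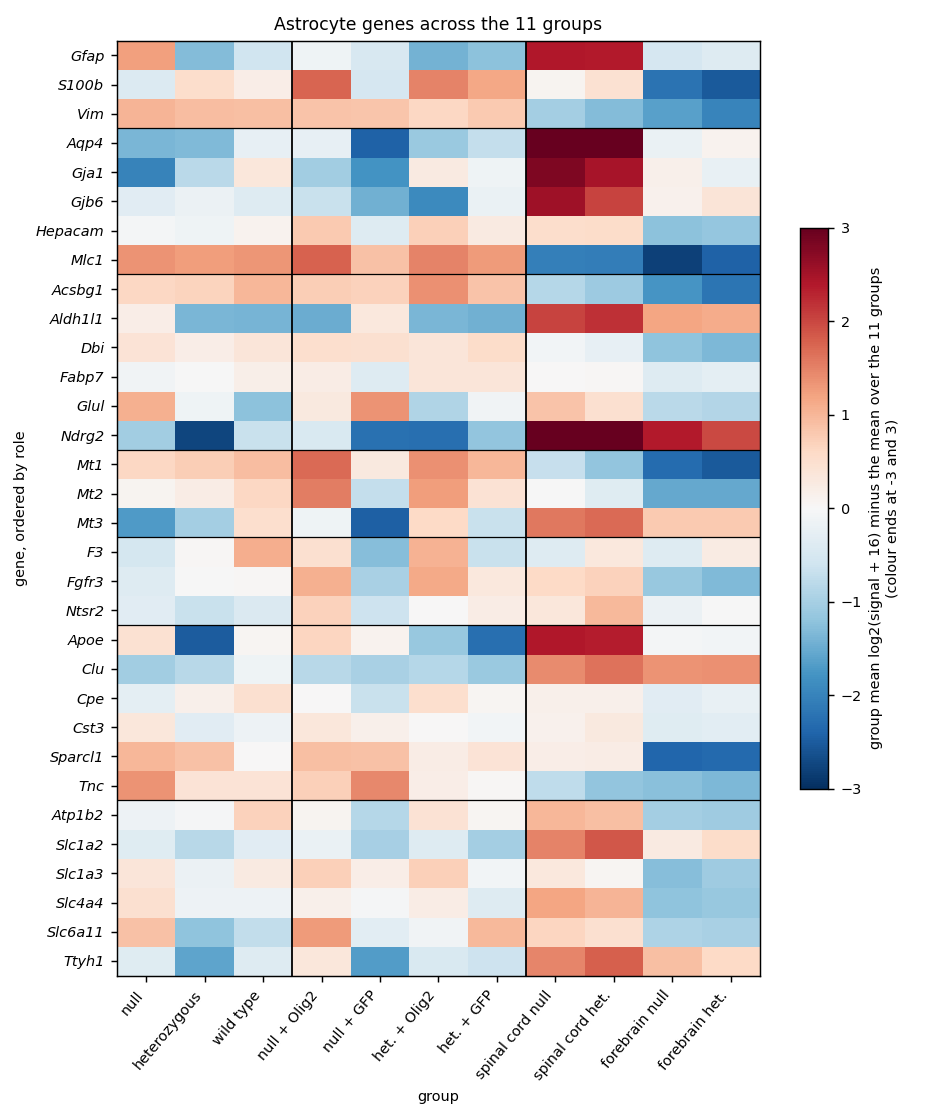
Mean log2(signal + 16) of each of the 32 genes in each of the 11 groups, minus that gene's mean over the groups (red higher, blue lower, colour ends at -3 and 3), with genes ordered by role. Vertical lines separate untransduced neurospheres, neurospheres with virus, and tissue. By mean signal before the log scale, null cultures with Olig2 virus are highest for 9 of the 32 genes, and spinal cord for 14. On the scale drawn, Fgfr3, among the 9, is highest in heterozygous lines with Olig2 virus (1.13, against 1.07 in null lines with it).

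Between null and Olig-expressing neurospheres 10 of the 31 genes tested were called, 8 higher and 2 lower in the null cultures. Of all 12022 genes tested, 8.32% were called, 4.34% higher and 3.98% lower. The astrocyte genes moved both ways: 17 of 31 differences were above 0 (46.4% of all genes), with a median of 0.12 against -0.02 over all genes. Without a sign, their median size was 0.58, against 0.16 over all genes. These calls were spread over metabolism (2 of 6 rose), secreted and matrix genes (4 of 6 rose, 1 fell), transport (2 of 6 rose) and junction and adhesion genes (1 of 4 fell). None of the 3 receptors, 3 cytoskeletal or calcium-binding genes or 3 metallothioneins was called.

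Glul, the glutamine synthetase that turns glutamate into glutamine in astrocytes, had signals of 4712 to 9398 in the 6 null cultures with a median of 8771, against 2297, 3519.5 and 4272 in heterozygous and 1374, 1239.5 and 1979.8 in wild type cultures. The null cultures lay above all 6 others, and wild type cultures below heterozygous ones. Such a gap, with no overlap, was seen upward for 4 of the 31 genes (2.45% of all genes) and downward for 0 (2.01% of all). Glul rose by 1.74 ± 0.20 (SE; n = 6 and 6; adjusted p 1.2e-04), and both of its probe sets rose. The value was 2.30 against wild type and 1.19 against heterozygous cultures, each called. Aldh1l1, a folate enzyme used as an astrocyte marker, had signals of 302 to 1189 with a median of 523 in null cultures, against 282, 238 and 102 in heterozygous and 175, 209 and 179 in wild type ones. It rose by 1.57 ± 0.33 (SE; adjusted p 0.0075), also without overlap. The other 4 metabolic genes had no call: Ndrg2, Dbi, Fabp7 and Acsbg1, a fatty-acid activating enzyme, ran from -0.22 to 0.65.

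Of the secreted and matrix genes, Cst3, the protease inhibitor cystatin C, had signals of 6339 to 8718 (median 6981) in null cultures, against 4561, 4309.8 and 4573 in heterozygous and 5185, 5256 and 4979 in wild type ones. These groups did not overlap, and Cst3 rose by 0.58 ± 0.08 (SE; adjusted p 3.9e-04). Tnc, the matrix glycoprotein tenascin C of progenitor niches, had 8637 to 16204 (median 12312) in null, against 6969.7, 5695 and 6090.4 in heterozygous and 9025, 7163 and 3756 in wild type cultures. Null line 14 (8637) lay below wild type line 2, and Tnc rose by 0.92 ± 0.19 (SE; adjusted p 0.0077).

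Sparcl1, a secreted synapse-promoting protein also known as hevin, separated wild type from the rest. It had 23452 to 30587 (median 27779) in null, against 26913, 25728 and 23268 in heterozygous and 13925, 12984 and 14134 in wild type cultures. The difference was 0.55 ± 0.08 (SE; adjusted p 4.7e-04) against both, 0.99 against wild type and 0.11, without a call, against heterozygous cultures. It was no longer called when the heterozygous and wild type cultures were fitted as 1 group (adjusted p 0.074).

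Apoe, the lipid carrier that astrocytes secrete, had signals of 1100.2 to 12387 (median 2316) in null cultures, against 462, 306 and 371 in heterozygous and 3759, 2337 and 1320.0 in wild type ones. The heterozygous cultures lay below all others. Against both the difference was 1.68 ± 0.49 (SE; adjusted p 0.0487), against heterozygous cultures it was 2.95 (adjusted p 0.012), and against wild type it was 0.40 (adjusted p 0.78). The call against both was lost when any of 9 of the 12 arrays was left out (1.27 to 1.96 over all 12). Cpe, a carboxypeptidase that processes neuropeptides, was lower in null cultures, with 10366 to 17932 (median 13228), against 19389, 17650.0 and 16454 in heterozygous and 22748, 19063 and 25612 in wild type ones. It fell by 0.60 ± 0.13 (SE; adjusted p 0.0088), and 1 of its 2 probe sets was called, the other standing at -0.06. Clu, the chaperone clusterin, had -0.56 and no call.

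In transport, Slc6a11, a GABA transporter, had signals of 599 to 7115 (median 3653) in null cultures, against 582, 612 and 497 in heterozygous and 710.0, 421 and 1637 in wild type ones. Null lines 21 and 24 (899 and 599) lay within the range of the Olig-expressing cultures and the other 4 null lines above it. Slc6a11 rose by 1.85 ± 0.53 (SE; adjusted p 0.0448), a call lost without any of 9 of the 12 arrays (1.54 to 2.25 over all 12). Slc4a4, a sodium bicarbonate cotransporter, had 1465 to 2497 (median 2002) in null, against 1073, 1300.1 and 1367 in heterozygous and 1341, 1121 and 1278 in wild type cultures. It did not overlap and rose by 0.63 ± 0.15 (SE; adjusted p 0.0175), as did the 4 of its 5 probe sets that passed the filter. The glutamate transporters Slc1a2 (0.22) and Slc1a3 (0.31), the sodium pump subunit gene Atp1b2 (-0.48) and the chloride channel gene Ttyh1 (0.63) had no call.

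Gja1, which encodes connexin 43, the main astrocyte gap junction protein, went the other way. It had 103 to 603 (median 385) in null cultures, against 385, 692 and 1582 in heterozygous and 2124, 965 and 2391 in wild type cultures. All null cultures lay below all wild type ones and overlapped with the heterozygous. Gja1 fell by 1.77 ± 0.42 (SE; adjusted p 0.0184), and 5 of its 6 probe sets fell (-2.07 to -0.98 over the 6). The water channel gene Aqp4 (-0.59), the adhesion gene Hepacam (-0.04) and the membrane protein gene Mlc1 (0.05) had no call.

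Gfap, the intermediate filament of astrocytes, had the largest difference of the 31 genes, 2.19 ± 0.71 (SE), with no call (adjusted p 0.077). Its null signals ran from 297 to 6441 with a median of 1759, against 252, 254 and 193 in heterozygous and 188, 1318 and 223 in wild type cultures. Null lines 12, 13 and 16 lay above all Olig-expressing cultures, null line 14 (1316.5) was level with wild type line 3 (1318.5), and null lines 21 and 24 (339.5 and 297.1) lay little above the other 5 Olig-expressing cultures. Its 3 probe sets gave 2.19 to 3.01, and 2 of them were called when every probe set was tested. With null lines 12, 13 and 14 alone, a choice made after the values were seen, Gfap was called and 9 genes in all, with Cpe and Tnc no longer among them. S100b, a calcium-binding protein, had -0.77, and Vim, another intermediate filament, 0.12. Among the receptor genes Fgfr3 had -0.40, the neurotensin receptor gene Ntsr2 0.22 and F3 -1.09. The metallothioneins, small cysteine-rich proteins that bind zinc and copper, were at -0.20 for Mt1, -0.33 for Mt2 and -1.46 for Mt3.

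The comparisons with wild type or heterozygous cultures alone share the null arrays with the one above. Leaving out any 1 of the 12 arrays gave 8 to 11 called genes, and the calls on Glul, Aldh1l1, Cst3, Sparcl1, Tnc, Slc4a4, Gja1 and Cpe held each time. Against wild type cultures alone 8 genes were called (6.7% of all genes, 3.86% higher and 2.84% lower), 5 higher and 3 lower, with Mt3 lower at -2.22 ± 0.54 (SE; adjusted p 0.023) beside Gja1 (-2.35) and Cpe (-0.76), and Glul, Aldh1l1, Cst3, Sparcl1 and Tnc higher. That count was 5 without any of the 3 wild type lines, with Aldh1l1 and Mt3 lost each time. Mt3 had 142 to 1402 (median 399.7) in null cultures against 1746, 1664 and 2799 in wild type ones. Against heterozygous cultures alone 5 were called (3.51% of all genes, 2.15% higher), namely Glul, Aldh1l1, Cst3, Tnc and Apoe, all higher. That count was 2 without heterozygous line 11, 1 without line 15 and 2 without line 26, and 3 without null line 13 or 21. Sparcl1 was the 1 member called between heterozygous and wild type cultures (0.88 ± 0.11 SE; adjusted p 0.016; 0.0333% of all genes), and without wild type line 2 or 3 or heterozygous line 11 or 15 it was not called. Ndrg2, a metabolic and growth regulator, was dimmest in heterozygous cultures (57.3, 27.2 and 81.1, all under the array median, against 280.4, 376 and 189 in wild type) without a call (-2.09; adjusted p 0.37). Heterozygous cultures were above wild type ones for 5 of the 31 genes (49.6% of all), with a median of -0.31, and wholly below them for 7 (6.25% of all).

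**Figure D2:**
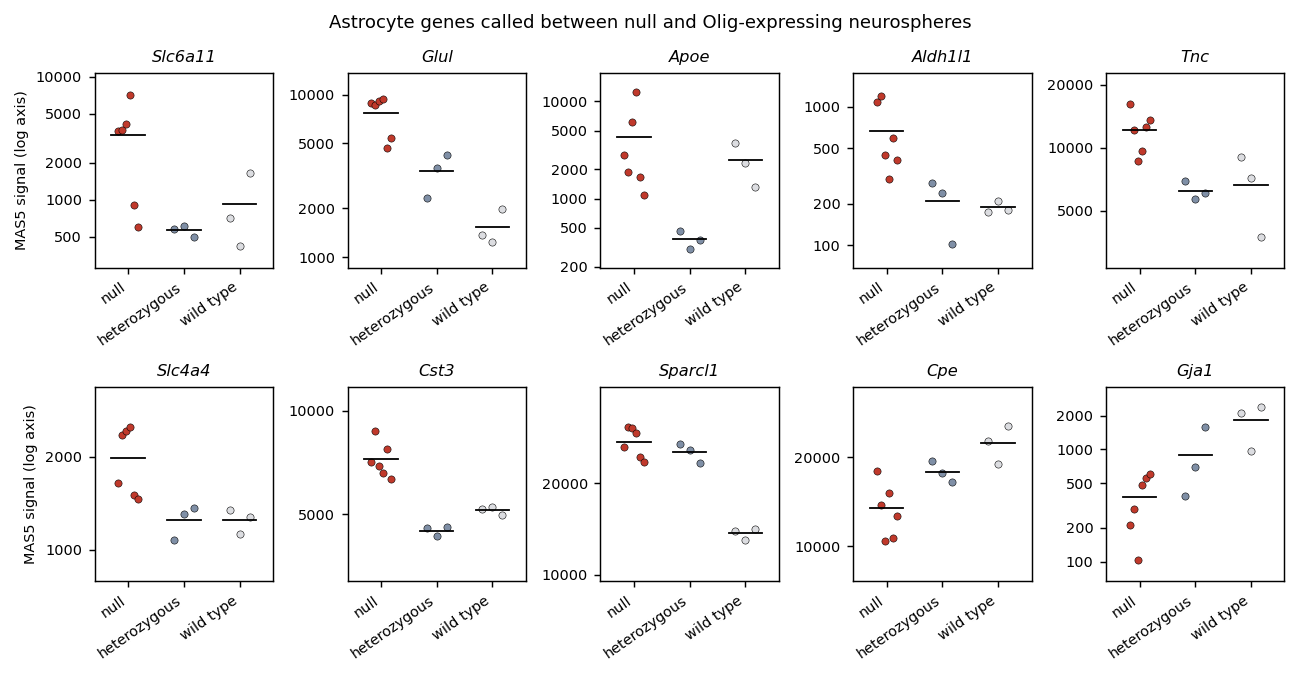
MAS5 signal (log axis) of the 10 genes called between null and Olig-expressing neurospheres, 1 point per culture, with a bar at the group mean (null n = 6, heterozygous n = 3, wild type n = 3). Glul, Aldh1l1, Cst3 and Slc4a4 have all null cultures above all others, Sparcl1 is low in wild type alone, and Apoe is low in heterozygous cultures alone.

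The null cultures differed among themselves. Lines 21 and 24 were the lowest 2 of the 6 for 20 of the 31 genes (64.5%), among them Gfap, Slc6a11, Apoe, Mt2, Fabp7 and Slc1a3. Over all genes this pair was lowest for 11.5%. Each of the other 14 pairs of null lines was lowest for at most 2 of the 31 and for 4.45% to 10.2% of all genes. This pattern was seen in the values first and is a description. Id4 did not follow it, with 2928 and 3407 in these 2 lines and 2574 to 3316 in the other 4.

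Other genes of astrocytes gave a mixed picture in the same comparison. Of 26 further astrocyte genes tested, 4 rose, 3 fell and 19 had no call, with a median of -0.10. The genes of smallest p were Mfge8, a secreted phagocytosis factor (1.72, adjusted p 2.9e-07), the endothelin receptor gene Ednrb (-1.81, adjusted p 1.2e-04) and the sulphur amino acid enzyme gene Cbs (2.32, adjusted p 1.8e-04). In a list of signalling genes and factors that induce astrocyte fate, 5 of 15 rose and 1 fell. Nfia, which rose by 0.50, is in both lists and is counted in each. The BMP effector gene Smad1 rose by 0.70, the receptor gene Notch2 rose by 0.85 and the leukaemia inhibitory factor receptor gene Lifr fell by 1.0. Of 9 reactive astrocyte genes Cd44 rose by 0.79 and Cxcl10 fell by 1.89. Of 7 metal and zinc response genes 1 fell, Gclc, by 0.31.

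Adding Olig2 back to null lines gave 12 called genes of 31 against GFP virus, 11 higher and 1 lower with Olig2. Of all 12458 genes 7.88% were called, 3.24% higher and 4.64% lower. Differences were above 0 for 28 of the 31 genes (52.7% of all), with a median of 0.76 against 0.03 over all genes. The 3 metallothioneins rose, as did 3 of 4 junction and adhesion genes, 2 of 3 receptors, S100b, Atp1b2 and Fabp7. Tnc was the 1 gene to fall.

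The array that served as the GFP control of line 13 stood apart in RNA measures, and 1 array at a time weighed on these counts. That array had a Gapdh 3'/5' log2 ratio, a measure read for RNA breakdown, of 0.432, where spinal cord arrays reached 0.374. It also had an A260/A280 ratio of 2.83 and the lowest median signal of all (128.9). Whether its RNA was broken down was not tested. The null Olig2 arrays had Gapdh ratios of -0.255 to -0.200 and the other null GFP arrays -0.0897 and -0.0399. Without GFP line 13 there were 11 called genes. The count was 8 without GFP line 12, 9 without GFP line 14, 3 without Olig2 line 12, 4 without Olig2 line 13 and 18 without Olig2 line 14. Fgfr3, Mt2 and Ntsr2 were called with any of the 6 arrays left out. No share of all genes is given for these fits, so the counts do not set the members apart from other genes. A fit that held the Gapdh ratio as covariate called 7 of the 31 genes, all higher, against 1.82% of all genes in that fit, and 27 of 31 differences were above 0 (51.1% of all). Fabp7, Fgfr3, Hepacam, Mlc1, Mt3 and S100b kept their calls and Slc1a3 was added. In that fit Mt1 (1.77, adjusted p 0.052), Mt2 (1.91, adjusted p 0.065), Ntsr2 (1.25, adjusted p 0.12), Tnc (-0.45, adjusted p 0.25), Aqp4 (1.82, adjusted p 0.30) and Atp1b2 (0.52, adjusted p 0.46) were not called. The part of RNA quality in these differences was not tested beyond this.

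Mt2 had signals of 15401, 10818 and 5288 with Olig2 in lines 12, 13 and 14, against 2354, 1570.4 and 2197 with GFP. It rose by 2.24 ± 0.33 (SE; n = 3 and 3; adjusted p 0.0036). Mt1 had 27435, 21118 and 13225 with Olig2, against 5819.6, 10317 and 6874 with GFP, and rose by 1.40 (adjusted p 0.019). That probe set has the suffix _s_. When probe sets of suffix _x_ or _s_ were avoided, the second Mt1 probe set was read and the call was lost. Mt3, the brain form of the family, rose by 2.31 (adjusted p 0.023), with 989, 2681 and 788 with Olig2, against 111, 349.6 and 367 with GFP. The 3 genes lie side by side on chromosome 8, Mt3 at 94152607 to 94154148, Mt2 at 94172618 to 94173567 and Mt1 at 94178883 to 94180327 (GRCm38.p6), with gaps of 18.47 and 5.316 kb. Of 8 metal and zinc response genes 1 rose with Olig2, the haem oxygenase gene Hmox1 (0.97).

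Among the junction and adhesion genes Aqp4 had 420.1, 225 and 128 with Olig2, against 61.4, 18.7 and 46.2 with GFP, where all 3 were under the array median, as was the Olig2 array of line 14. Aqp4 rose by 2.17 ± 0.55 (SE; adjusted p 0.036), and 1 of its 2 probe sets tested was called. Hepacam, an adhesion molecule that binds Mlc1, had 2342, 3083 and 1898 with Olig2, against 851, 1149.5 and 1204 with GFP, and rose by 1.17 (adjusted p 0.014). Mlc1 itself rose by 0.90 (adjusted p 0.024), with 8517, 6125 and 8055 with Olig2, against 2981, 5398 and 3988 with GFP. Gja1 had 2137, 2255 and 42.1 with Olig2, against 539, 288 and 332 with GFP, higher with Olig2 in lines 12 and 13 and lower in line 14, and it had no call (0.76, adjusted p 0.70).

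Of the receptors, Fgfr3, an FGF receptor of astrocyte progenitors, had 2132, 3687 and 1332 with Olig2, against 346, 929 and 444 with GFP. It rose by 2.03 ± 0.38 (SE; adjusted p 0.011), as did its second probe set (3.38). Ntsr2 had 733, 379 and 482 with Olig2, against 200.0, 195 and 197 with GFP, and rose by 1.31 (adjusted p 0.011). F3 had 303, 145 and 72.3 with Olig2, against 42.3, 15.2 and 49.4 with GFP, without a call (1.75, adjusted p 0.10).

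S100b had 1804, 2373 and 921 with Olig2, against 156, 600.2 and 340.4 with GFP, and rose by 2.25 ± 0.45 (SE; adjusted p 0.015). Gfap did not separate, with 675, 316 and 749 with Olig2, against 257, 434 and 652 with GFP (0.36, adjusted p 0.57). Vim differed by 0.03. In transport Atp1b2 rose by 0.94 (adjusted p 0.045), with 5072, 4002 and 2877 with Olig2, against 2336, 1354 and 2583 with GFP. Slc6a11 stood just past the threshold (1.58, adjusted p 0.0505), with 3331, 2145 and 4584 with Olig2, against 783, 839 and 1793 with GFP, and was called with the line as a replicate block, which gave 13 calls. Ttyh1 (2.02), Slc1a2 (0.82), Slc1a3 (0.51, with 3 of its 6 probe sets called higher) and Slc4a4 (0.18) had no call.

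Fabp7, a fatty-acid binding protein of radial glia, rose by 0.60 (adjusted p 0.040), with 26218, 28021 and 23481 with Olig2, against 13493, 21928 and 16568 with GFP. Glul had 3114, 2405 and 10818 with Olig2, against 8227, 8693 and 10389.7 with GFP. It was lower in lines 12 and 13 and not in line 14 (-1.06, adjusted p 0.13). Aldh1l1 had 136, 231 and 169.5 with Olig2, against 198, 3099.6 and 420.0 with GFP, lower in each line and without a call (-1.80, adjusted p 0.15). Ndrg2 (1.80, adjusted p 0.066) was higher in each line. Acsbg1 (0.04) and Dbi, the acyl-CoA binding protein gene (0.02), had no call.

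Tnc had 6352, 7770.2 and 8906 with Olig2, against 11587, 15979.5 and 11030.1 with GFP, and fell by 0.74 ± 0.16 (SE; adjusted p 0.019). Its second probe set stood at 0.56 without a call. The other secreted genes, Cpe (0.69), Apoe (0.54), Cst3 (0.19), Clu (0.14) and Sparcl1 (0.01), had no call. For each of the 12 called genes the Olig2 and GFP signals did not overlap, as was so for 15 of 31 genes upward (13.8% of all) and 1 of 31 downward (14.8% of all). Of the 26 further astrocyte genes, 5 rose and 1 fell with Olig2 (median 0.39). The lipid phosphatase gene Plpp3 rose by 1.28, the nuclear receptor gene Rorb by 1.16 and Mmd2 by 3.28.

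**Figure D3:**
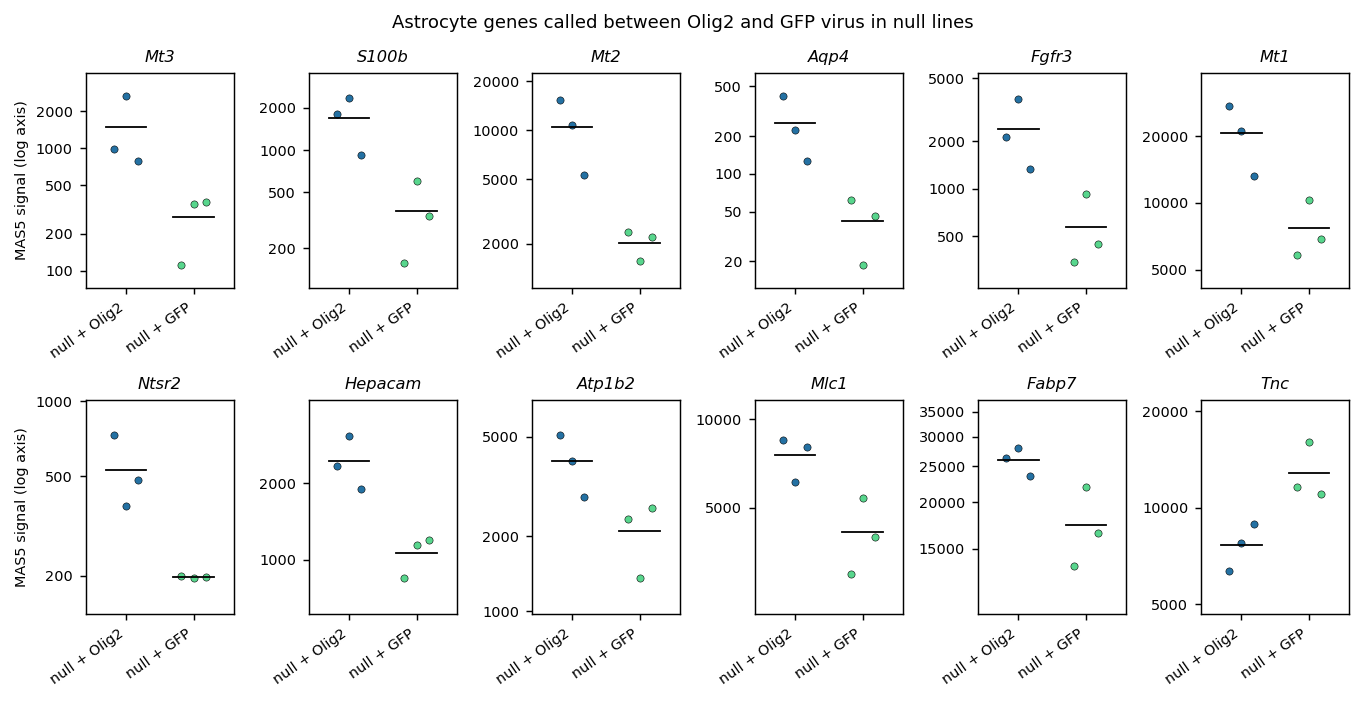
MAS5 signal (log axis) of the 12 genes called between Olig2 and GFP virus in null lines, 1 point per line in the order 12, 13 and 14, with a bar at the mean (n = 3 each). In 11 of the 12 genes all Olig2 points lie above all GFP points, and in Tnc they lie below.

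The GFP arrays were themselves lower than untransduced arrays of the same null lines for 27 of the 31 genes (49% of all genes were lower), with a median of -0.45 against 0.01 over all. None of the 31 was called in limma, 13 had an unadjusted p under 0.05 (11.7% of all genes), and 6 genes were called among all 12427 (0.0483%). Gfap differed by -2.42 and Slc6a11 by -1.83, each with adjusted p 0.084. Over null and heterozygous lines together no member was called either (3 of 12427 genes, 0.0241%). That comparison averages the genotypes, so opposite differences cancel. Slc6a11 differed by -2.19, -2.11 and -1.19 in null lines 12, 13 and 14, but by 2.63 and 1.57 in heterozygous lines 11 and 15. F3, by contrast, was lower with GFP in every line of both genotypes. There 10 of the 31 members (32.3%) had an unadjusted p under 0.05, against 1566 of all genes (12.6%).

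Set against the untransduced arrays of lines 12, 13 and 14 in place of GFP, the Olig2 arrays gave 3 calls, and 18 of 31 differences were above 0 (53.4% of all genes; 576 genes, or 4.66%, called), with a median of 0.19. Fgfr3 rose by 1.40 (adjusted p 0.025), with untransduced signals of 674, 752 and 1090.1. Aldh1l1 fell by 2.16 (adjusted p 0.0067), with untransduced signals of 1087, 1189 and 451. Gfap fell by 2.05 (adjusted p 0.016), with untransduced signals of 4232, 2201 and 1316. The metallothioneins (0.96 to 1.32) and S100b (1.73) were higher without a call, with adjusted p of 0.055 to 0.27. Slc6a11 (-0.25), Mlc1 (0.13) and Atp1b2 (-0.04) were near 0 and had no call. The comparisons share the Olig2 arrays and are not independent.

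The null and the add-back comparison used different arrays but share lines 12, 13 and 14. Tnc was the 1 gene called in both, higher in null cultures and lower with Olig2, as were 1.46% of all 11789 genes. Of the other 7 genes that rose in null cultures none was called with Olig2, and of Gja1 and Cpe, which fell, neither was. Over all genes 2.93% rose in null cultures without a call for Olig2, 3.09% fell there without one, and 0.891% fell there and rose with Olig2. The 11 genes that rose with Olig2 had no call in the null comparison (2.47% of all genes), and 10 genes were called in neither (85.7%). By direction alone, 14 of 31 genes were higher in null cultures and higher with Olig2 (45.2%, against 18.7% of all 11789 genes), and 14 were lower in null cultures and higher with Olig2 (45.2%, against 33.3%). The reverse, higher in null and lower with Olig2, held for Glul, Aldh1l1 and Tnc (9.68%, against 27.8%). None was lower in both (20.2% of all).

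**Figure D4:**
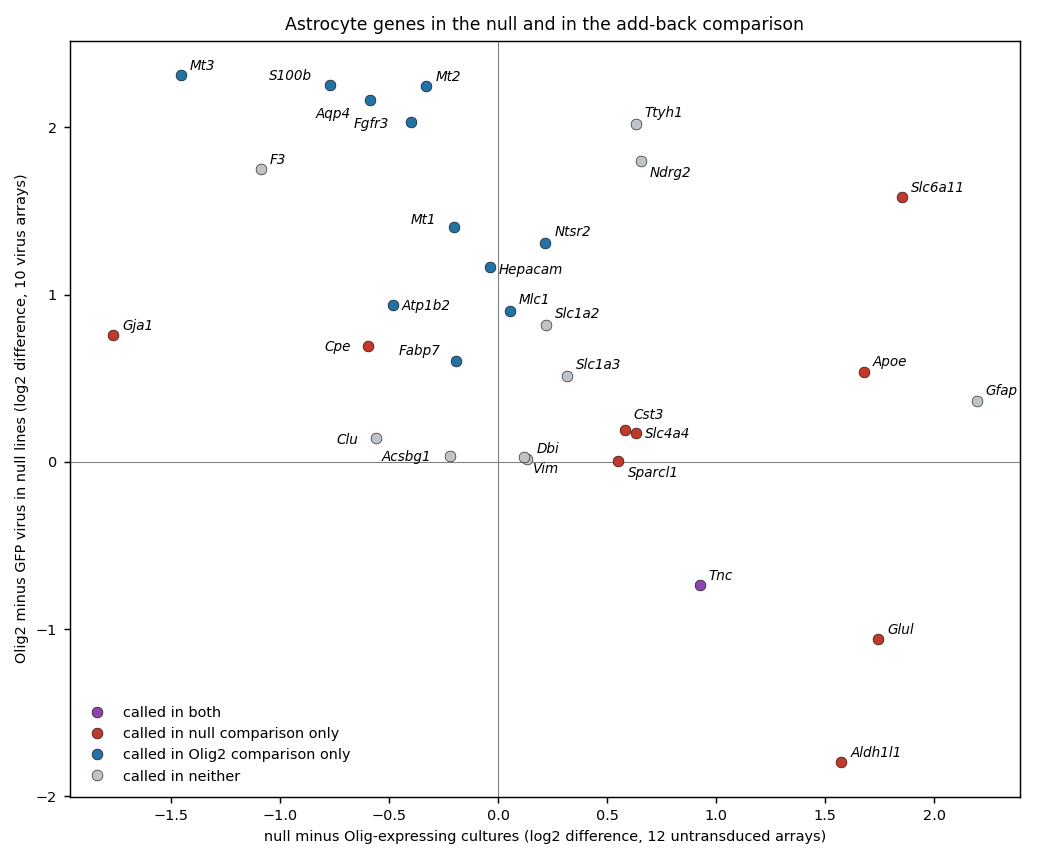
Log2 difference between null and Olig-expressing cultures (horizontal) against that between Olig2 and GFP virus in null lines (vertical), 1 point per gene (n = 31). Tnc, called in both, lies at lower right with Glul and Aldh1l1, and the 11 genes that rose with Olig2 lie in the upper part between -1.46 (Mt3) and 0.22 (Ntsr2) on the horizontal axis.

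In heterozygous lines Olig2 against GFP gave 0 calls among the 31 genes and among all 12458 genes in limma, while 3 of the 31 (Slc4a4, Acsbg1 and F3) and 484 of all genes (3.89%) had an unadjusted p under 0.05. The differences ran from -1.08 (Slc6a11 and Ndrg2) to 1.71 (F3) with a median of 0.25. Mt2 had 6086 and 10126 with Olig2, against 4078 and 4868 with GFP in lines 11 and 15. The Olig2 effect in null lines minus that in heterozygous lines gave 0 calls among the 31 and 7 among all genes (0.0562%). The smallest adjusted p of the 31 were those of Ntsr2 (1.52, adjusted p 0.22), Slc6a11 (2.66, adjusted p 0.24) and Tnc (-0.89, adjusted p 0.25), and with the line as a replicate block Slc6a11 was called. When the GFP arrays of both genotypes were compared, Tnc was the 1 member called (1.40 ± 0.17 SE; adjusted p 0.0023; 1.7% of all genes called). Tnc had 11587, 15979.5 and 11030.1 in null and 4842 and 4739.7 in heterozygous lines. In limma 15 of the 31 (48.4%) had an unadjusted p under 0.05, against 14.9% of all genes. Without overlap, 15 members were lower in the null arrays (48.4%, against 18.6% of all genes) and 5 were higher (16.1%, against 15.1%). Of the 31 differences between these GFP arrays 12 were above 0 (45.8% of all genes), with a median of -0.61.

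In E18.5 tissue 0 of the 31 genes were called by genotype and 30 by region. Null against heterozygous forebrain gave 0 calls among 31 genes in limma (5 of 12342 genes, 0.0405%), with differences of -0.39 to 0.42, and 4 genes at an unadjusted p under 0.05 (6.34% of all genes; Gja1, Ttyh1, Vim and Ndrg2). Null against heterozygous spinal cord gave 0 calls (16 of 12342, 0.13%), with differences of -0.64 to 0.51, and 7 genes at an unadjusted p under 0.05 (6.01% of all genes; Tnc, Gja1, Glul, Ntsr2, Ttyh1, Slc1a2 and Vim). The 95% interval lay within a log2 difference of 1 in size for 30 of 31 genes in forebrain and 27 of 31 in spinal cord. The difference of the genotype effects between the tissues gave 0 calls among the 31 and among all 12342 genes (705, or 5.71%, at an unadjusted p under 0.05).

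Gja1 was the gene of smallest p in forebrain, with 1564.5 and 1408 in null, against 1169 and 1115 in heterozygous embryos (0.37, 95% interval 0.17 to 0.58; adjusted p 0.51). In spinal cord it had 9837 and 8980.2 in null, against 7475 and 7472 in heterozygous embryos (0.33, interval 0.13 to 0.53; adjusted p 0.46). Tnc had the smallest p in spinal cord, with 3007 and 2500.4 in null, against 2014 and 2089 in heterozygous embryos (0.42, interval 0.17 to 0.67; adjusted p 0.43). Glul had 6047 and 6882 in null, against 4574 and 5380.0 in heterozygous spinal cord (0.38, adjusted p 0.58). Ntsr2 was lower, with 387 and 405 in null, against 567 and 695 in heterozygous spinal cord (-0.64, interval -1.10 to -0.19; adjusted p 0.56). Genes that rose in null neurospheres stood close to 0 in spinal cord for Apoe (0.05), Sparcl1 (-0.03) and Cst3 (-0.15), and Gfap was at 0.03.

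Markers of oligodendrocytes did move in the same spinal cord arrays. Of 12 tested 3 fell, Gpr17 (-5.74), the myelin gene Mbp (-2.95) and Cnp (-1.15), and 9 had no call. Of all genes 0.13% were called in that comparison. In forebrain 0 of the 12 were called (0.0405% of all genes). The summed signal of 14 such markers was 5670.0 and 5771 in null and 13977 and 15954 in heterozygous spinal cords. Of 10 meningeal and mural markers 1 rose, Dcn, by 0.99. Their summed signal was 32058 and 32244 in null, against 24202 and 19772 in heterozygous spinal cords. In whole tissue fewer cells of a type and less RNA per cell cannot be told apart.

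Spinal cord stood above forebrain for 30 of the 31 genes by a call, and Clu, at 0.16 (adjusted p 0.097), was the exception. Of all genes 40% were called, 21.3% higher in spinal cord. The median of the 31 was 1.35, against -0.01 over all genes. Aqp4 had the largest difference, 3.82 ± 0.12 (SE; adjusted p 2.9e-09), with 3387 to 4864 over the 4 spinal cords, against 214 to 303 over the 4 forebrains. Gfap (2.85), Gja1 (2.67), S100b (2.65), Sparcl1 (2.56), Apoe (2.45), Slc4a4 (2.28) and Gjb6 (2.03) followed. Gfap had 2775 to 3773 in spinal cords, against 391.7 to 512.4 in forebrains, and Gjb6 had 316 to 577, against 72.5 to 116. S100b had 438 to 681, against 50.1 to 90.8. Both S100b and Gjb6 were under the array median on every forebrain array, so they passed the filter through spinal cord alone. Their direction was thereby set by the filter, and the 30 calls include them. The smallest rises were those of Tnc (0.34), Fabp7 (0.37), Cpe (0.43), Cst3 (0.55), Mlc1 (0.56) and Vim (0.64). When probe sets of suffix _x_ or _s_ were avoided, Mt1 was no longer among the called genes. The call on Mlc1 was lost without 1 of 4 of the 8 arrays, and the others held without each array.

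Other lists moved between the regions as well, and their part in these differences was not tested. All 7 microglial markers tested rose, with a summed signal of the 10 on the array of 6094 to 8867 in spinal cord, against 2330 to 3100.1 in forebrain. Of 10 meningeal and mural markers 7 rose (19772 to 32244, against 5692 to 6525), and of 12 oligodendrocyte markers 10 rose. Of 27 further astrocyte genes 16 rose and 3 fell, with Aldoc up by 2.22 and the fate factor genes Nfix and Nfib down by 1.85 and 1.65. Of 15 neuronal markers 6 rose and 6 fell, and of 5 ependymal and choroid plexus markers 1 rose and 4 fell. The Gapdh log2 ratio was 0.0371 to 0.374 in spinal cord, against -0.224 to -0.0664 in forebrain.

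**Figure D5:**
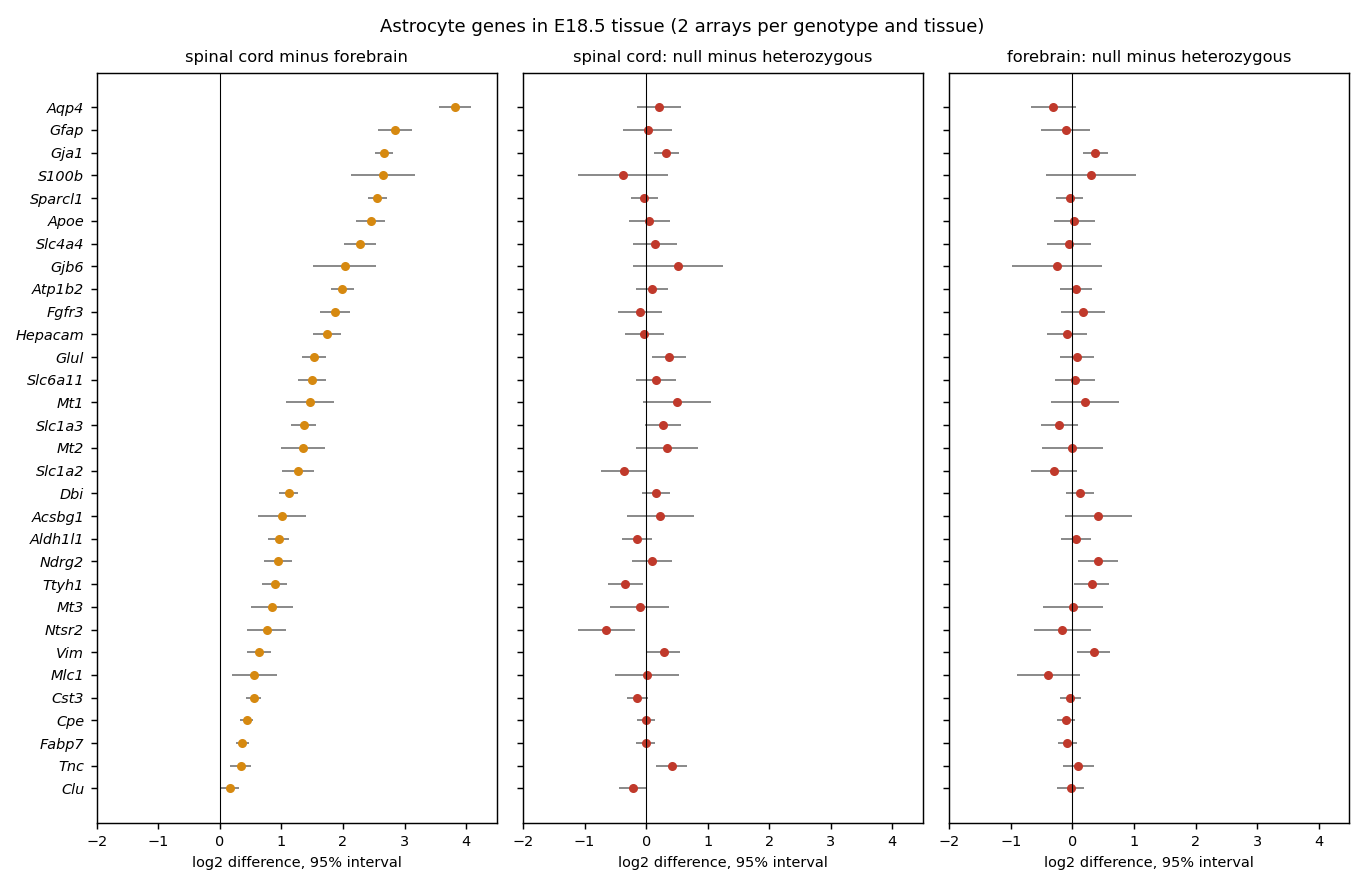
Log2 differences with 95% intervals for the 31 genes tested in E18.5 tissue, ordered by the first panel. Left, spinal cord against forebrain (4 arrays each), where 30 of 31 were called higher, S100b and Gjb6 having passed the filter through spinal cord alone. Middle and right, null against heterozygous spinal cord and forebrain (2 arrays each), where points lie between -0.64 and 0.51 and none was called.

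Levels in culture and in tissue differed gene by gene, on signals that the authors scaled in the same way and that were not tested against each other. Over the 12 untransduced cultures, 12 of the 32 genes lay wholly above all 4 forebrains (15.7% of all genes), among them Vim (34979.7 to 43511 against 4950 to 6730.1), Tnc, Mlc1, Sparcl1, Mt1 and Mt2. Clu and Ndrg2 lay wholly below (16.4% of all). Compared with spinal cord, 5 lay above (Acsbg1, Mlc1, Mt1, Tnc and Vim, 16.5% of all) and 11 below (17.5%). Aqp4 had 38.4 to 480.5 in the cultures, against 3387 to 4864 in spinal cord, Ndrg2 27.2 to 573, against 3522 to 4666, and Gja1 103 to 2391, against 7472 to 9837. With Olig2 virus, null lines reached the highest group mean signal of all 11 groups for S100b (1699), Fgfr3 (2384), Mt1 (20593), Mt2 (10503), Hepacam (2441), Mlc1 (7566), Slc1a3, Cst3 and Slc6a11. For Fgfr3, heterozygous lines with Olig2 virus stood close (2283) and were highest on the log2 scale.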

How the data were processed

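Expression was measured on 30 Affymetrix Mouse Genome 430 2.0 arrays. The deposited values are MAS5 signals, a linear intensity per probe set, per the submitters' processing notes; its version is not given in the sources used. In the files the 2% trimmed mean was 500 on each array, so the authors' scaling makes each value relative to the rest of its array. Replicates were not pooled.

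From these deposited intensities log2(signal + 16) was computed. Control probe sets were removed, and 1 probe set per gene was read, the one of highest mean. A gene was tested if its signal was at least the array median on a number of arrays no smaller than the size of the smallest group. Platform annotation gave 34945 probe sets 1 symbol, 932 several and 9211 none. The symbols of 34741 were matched to RefSeq by Entrez ID with no change. Comparisons used limma 3.58.1 (lmFit, contrasts.fit, eBayes with trend) in R 4.3.3, two-sided, with Benjamini-Hochberg adjustment over all genes tested and a threshold of 0.05. The fit was tested on simulated data. The number of arrays limits the precision. Figures were drawn with Python and matplotlib.

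Samples were grouped by their labels. Line and embryo numbers mark the same culture or embryo across groups. The fit without that block is the main one. Deviations of same-numbered arrays correlated at -0.096 to 0.13 over 14 pairs, of which 7 correlated best with their own number. In groups of 2 arrays both pairs give the same value by construction, so this count cannot decide between the fits.

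The members and gene lists were chosen with earlier results of these data known. By rule every member is named, members called in a comparison or failing the filter have values, array values are given for members called in the null, add-back or tissue comparisons, other probe sets are read, and other lists give counts and up to 3 genes of smallest p. Alternatives covered the pseudocount, filter, normalization, variance trend, groups in the fit, replicate block, probe set choice, control for Olig2, a Gapdh covariate and each array left out.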

Additional observations from a re-analysis of the deposited data

Results flagged for a closer look

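Ttyh1, a chloride channel gene, stood apart in null line 16, with a signal of 954.2, against 230.1 to 359.7 in the other 5 null lines. The gap to the nearest line was 0.692 of the whole range of the group, above Dixon's 95% critical value of 0.625 for 6 arrays. Of 31 genes tested in this group 1 passed that value, and chance passes about 1 in 20.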

How the results depend on the processing

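Over the settings other than leaving out an array, 571 of 621 member calls held, 49 were lost and 1 changed sign. With an array left out, 474 of 560 held and 86 were lost. Without the variance trend the number of called members was 5 for null against wild type cultures, 3 for null against heterozygous, 0 for heterozygous against wild type, and 3 for Olig2 against GFP in null lines. Without the filter it was 3 for null against heterozygous and 0 for heterozygous against wild type cultures. For Olig2 in null lines it was 3 with untransduced arrays as the control, where Atp1b2 changed sign to -0.036, and 7 with the Gapdh covariate. With all probe sets tested, null against heterozygous lines with GFP gave 2. The cause was not tested. Of all genes, 4.66% were called with the untransduced control and 1.82% with the Gapdh covariate. For the other settings and for arrays left out no share of all genes is given. Those counts therefore do not show whether members lost calls more often than other genes. The replicate block gave 13 calls for Olig2 in null lines and 1 for the difference between null and heterozygous lines, in both adding Slc6a11, and it changed no other call. With 1 array left out, counts ran from 8 to 11 for null against Olig-expressing, 5 to 9 against wild type, 1 to 7 against heterozygous, 0 to 1 for heterozygous against wild type, 3 to 18 for Olig2 in null lines, 1 to 3 for null against heterozygous lines with GFP and 29 to 30 for spinal cord against forebrain. They stayed at 0 for the other comparisons. Where this leaves 1 array in a group, that array is assumed to vary like the others. Dim genes near or under the array median have the least certain values. These are Aqp4, Ndrg2, F3 and Gjb6 in culture, and S100b, Gjb6 and F3 in forebrain.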

Other observations

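Over null and heterozygous lines, GFP against untransduced arrays gave 1 call among 15 astrocyte-inducing signalling genes, Socs3, an inhibitor of cytokine signalling, which was lower with GFP (-1.19, limma adjusted p 0.042). Of 8 reactive astrocyte genes 1 was called, Cebpd, a transcription factor, also lower with GFP (-1.08, limma adjusted p 0.020). Among lines that all carried GFP, 1 of the 15 signalling genes was called, Lifr, lower in null than in heterozygous lines (-1.47, limma adjusted p 0.0054). Of 26 further astrocyte genes in that comparison 2 rose and 1 fell, with Mfge8 at 0.93, Megf10, a phagocytosis receptor, at 1.79 and Plpp3 at -1.09.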
